A study of Mus musculus with 9 samples.

Results

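Expression of 9 members of the PRDM family other than Prdm16 was examined in mouse cochlear ducts that carried 2, 1 or 0 intact copies of Prdm16. The 9 genes, Prdm1, Prdm2, Prdm4, Prdm6, Prdm8, Prdm10, Prdm11, Prdm15 and Mecom, were taken by name from the 54232 genes of the count files. The rule itself uses no measured value, but it was set with earlier results of these data known. RNA came from 9 embryos at E14.5, 3 wild type (WT), 3 heterozygote (Prdm16 cGT/+) and 3 null (Prdm16 cGT/cGT). The cGT allele is a gene trap that is present in every cell of the animal, so its effect is not limited to the cochlea, and the strain was kept on an FVB/NJ background. Embryos came from Prdm16 cGT/+ intercrosses, 3 littermates were used per genotype, and each library held the microdissected ducts of both inner ears of 1 embryo. Total counts ranged from 24095322 to 30819118 per library.

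PRDM proteins combine a PR domain, a relative of the SET domain of histone methyltransferases, with zinc fingers that in most members bind DNA. They act mainly as transcriptional regulators that settle cell fate, either by modifying histones themselves or by recruiting corepressors and methyltransferases. Mecom, also called Prdm3 or Evi1, is the closest relative of Prdm16, and both are known as histone methyltransferases and as regulators of blood stem cells and craniofacial tissue. In the cochlea, Prdm16 is a marker of Kölliker's organ, the transient epithelium beside the prosensory domain that later gives rise to the hair cells and their supporting cells. The comparison asks whether relatives of Prdm16 change their RNA level when Prdm16 is lost.

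Prdm1 and Mecom rose in null ducts, to 2.47-fold and 2.45-fold of their mean WT levels, while the other 5 tested members did not pass the test. Prdm1 was also called higher in heterozygotes, where the Mecom value did not pass the test. The remaining members, Prdm6 and Prdm8, were too low to be tested in the pairwise comparisons, and most of the Prdm6 counts came from 1 null library. Before these members the targeted gene was checked. In CPM, which are counts scaled to 1 common library size after TMM, edgeR's correction for library composition, WT embryos 1, 2 and 3 had 225, 197 and 184 of Prdm16. Heterozygotes had 151, 123 and 141 CPM and null embryos 23.7, 19.1 and 27.4 CPM, with no overlap between genotypes.

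The sequences upstream of the start sites of Prdm1 and Mecom are shown because these are the members whose RNA changed, and because Mecom is transcribed from separate starts. The RefSeq promoter entries used, of build GRCm38.p6, the build of mm10, matched 7 of the 9 members with 11 start sites. None of the entries used was of Prdm2 or Prdm6. Whether Prdm6 has an entry outside those used was not examined. Each sequence is the 250 bases before a start site on the strand of the gene, with CpG dinucleotides in capitals. The Prdm1 window lies at chr10:44458749-44458998 on the minus strand. The Mecom windows lie at chr3:30509760-30510009 and chr3:30013205-30013454 on the minus strand, and their start sites are 496555 bases apart.
Prdm1: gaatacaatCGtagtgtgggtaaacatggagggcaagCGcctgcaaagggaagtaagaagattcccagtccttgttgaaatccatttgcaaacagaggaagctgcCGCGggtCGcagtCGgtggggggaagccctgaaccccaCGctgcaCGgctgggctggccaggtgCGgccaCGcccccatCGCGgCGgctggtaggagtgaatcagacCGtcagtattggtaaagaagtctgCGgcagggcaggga
Mecom upstream start: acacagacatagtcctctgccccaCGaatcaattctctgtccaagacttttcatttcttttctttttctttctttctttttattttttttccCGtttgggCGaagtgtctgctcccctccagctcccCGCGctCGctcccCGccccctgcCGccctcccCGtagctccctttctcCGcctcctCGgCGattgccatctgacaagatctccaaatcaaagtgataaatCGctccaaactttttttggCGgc
Mecom downstream start: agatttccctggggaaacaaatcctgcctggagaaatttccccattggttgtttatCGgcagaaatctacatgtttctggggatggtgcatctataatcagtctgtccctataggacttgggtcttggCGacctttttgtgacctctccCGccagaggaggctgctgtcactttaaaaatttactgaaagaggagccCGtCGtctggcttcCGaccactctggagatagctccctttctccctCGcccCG
The Prdm1 window held 15 CpG and 59.2% G and C. The upstream Mecom window held 14 CpG and the downstream one 8, with 50.8% and 50.4% G and C. All mouse windows of this length had a median of 6 CpG and 52.4% G and C. Letters of known family motifs were searched on both strands: AGNGAAAG, the core of the Prdm1 motif, and AAGATA and GATGAG, the cores bound by the separate zinc finger arrays of Mecom. None of them was found in these 3 windows, and the only match among the 11 windows was AGNGAAAG in a Prdm4 window, starting 39 bases before the start site (position -39). Of 32851 windows in the table, 7.30% held AGNGAAAG, 8.77% held AAGATA and 10.1% held GATGAG on either strand.

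Prdm1, also called Blimp1, is a repressor best known for driving plasma cell differentiation and for specifying primordial germ cells. The gene (ENSMUSG00000038151) lies on chromosome 10 from 44437177 to 44528501 of mm10 on the minus strand. WT embryos 1, 2 and 3 had 12.9, 8.24 and 8.62 CPM. Heterozygotes had 21.4, 20.3 and 19.0 CPM. The null embryos had 30.9, 23.5 and 19.1 CPM. Every heterozygote and every null library lay above every WT library, whereas null and heterozygote values overlapped. Means were 9.93 ± 2.61 CPM in WT, 20.2 ± 1.20 in heterozygotes and 24.5 ± 5.97 in null embryos (SD, n = 3 each). The log2 fold change in null against WT was 1.30 (standard error 0.233, 95% interval 0.76 to 1.84, edgeR adjusted p = 0.0386).

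Mecom drives the maintenance of blood stem cells and is an oncogene in leukaemia. The gene (ENSMUSG00000027684) lies on chromosome 3 from 29951296 to 30548008 of mm10 on the minus strand. Its locus gives a long form with the PR domain and short forms without it from the separate starts shown above, and counts per gene cannot tell these forms apart. The WT libraries held 14.4, 17.1 and 15.7 CPM of Mecom. The heterozygote libraries held 21.1, 19.4 and 18.4 CPM. The null libraries held 32.8, 30.5 and 52.2 CPM. The 3 genotypes did not overlap, with WT lowest and null highest, and null embryo 3 stood well above the other two. Means were 15.7 ± 1.35 CPM in WT, 19.6 ± 1.38 in heterozygotes and 38.5 ± 11.9 in null embryos (SD, n = 3 each). The log2 fold change in null against WT was 1.28 (standard error 0.210, 95% interval 0.80 to 1.77, edgeR adjusted p = 0.0261).

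**Figure D1:**
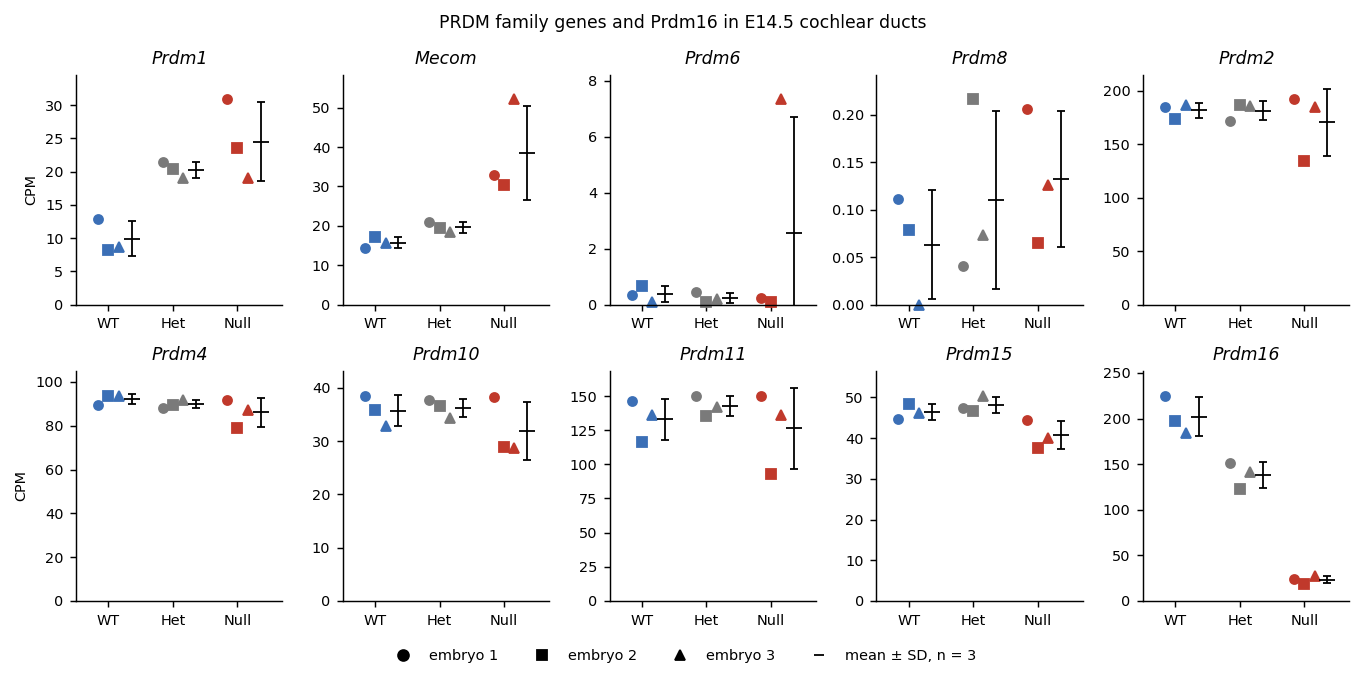
CPM of the 9 PRDM family genes and of Prdm16 in each library by genotype, with 1 marker shape per embryo number and the mean ± SD of 3 embryos beside them. Axes are linear, start at 0 and differ between panels, and the SD bar of Prdm6 in null embryos runs below 0. Prdm1 rises from 8.24 to 12.9 CPM in WT to 19.1 to 30.9 CPM in null embryos, and Mecom from 14.4 to 17.1 CPM to 30.5 to 52.2 CPM.

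In null against WT, 2 of the 7 tested members were called higher and 0 lower, where a call needed both an adjusted p below 0.05 and a log2 fold change beyond 0.5 in size. Among all 17168 genes tested in this comparison, 0.92% were called higher and 0.786% lower. The same 2 members had every null value above every WT value, as had 10.1% of all genes, and 1 member, Prdm15, had every null value below every WT value, as had 8.95% of all genes. The median log2 fold change of the 7 tested members was -0.10, beside 0.01 over all genes. With DESeq2 the same 2 members were called, Prdm1 with an adjusted p of 2.89e-07 and Mecom with an adjusted p of 8.81e-09.

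The calls for Prdm1 and Mecom depended on which embryo was left out, and that for Mecom also on the model, although their values did not turn direction in any of the fits run. Prdm1 kept an edgeR adjusted p under 0.05 without null embryo 3 (log2 fold change 1.45, adjusted p = 0.0143) and lost it without each of the other 5 embryos (log2 fold changes of 1.10 to 1.54, adjusted p of 0.0581 to 0.207). Mecom kept it without null embryo 2 (1.43, edgeR adjusted p = 0.0322) and without null embryo 3 (1.01, edgeR adjusted p = 0.00759), and lost it without each other embryo (1.23 to 1.39, adjusted p of 0.0575 to 0.150). The smallest Mecom value was thus the one without its highest library, and that fit gave its lowest adjusted p among those that left out 1 embryo.

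**Figure D2:**
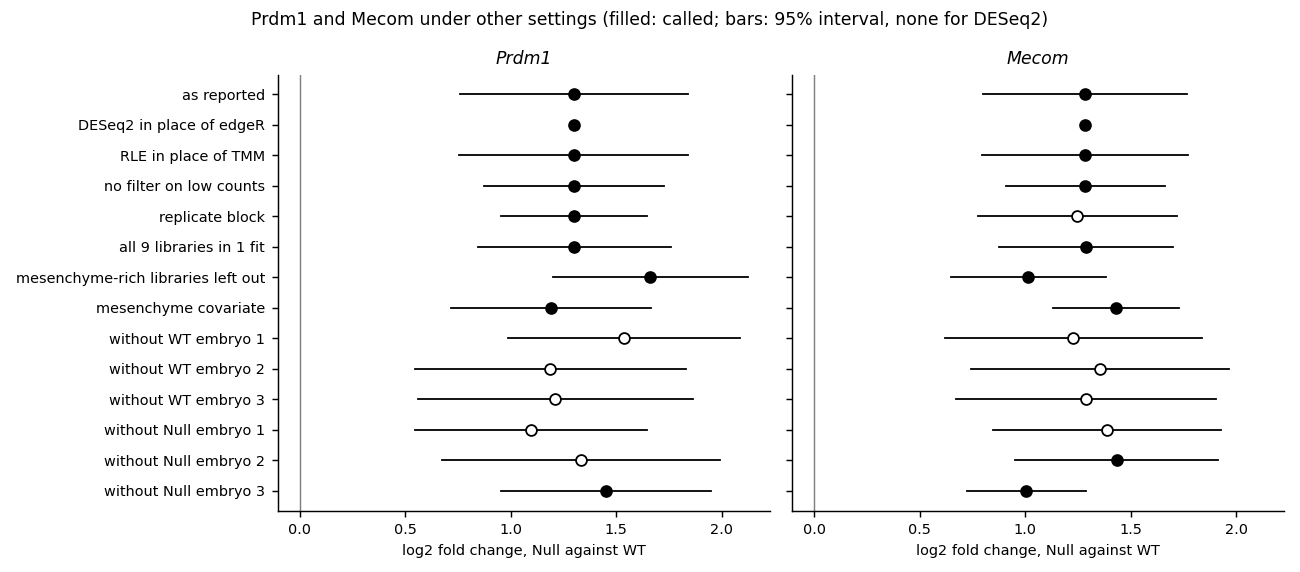
Log2 fold change of Prdm1 and Mecom in null against WT under each setting, with 95% intervals except for DESeq2. Filled points passed the test. Prdm1 values range from 1.10 to 1.66 and Mecom values from 1.01 to 1.43, all above 0.

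In heterozygotes against WT, 1 of the 7 tested members was called higher, Prdm1, and 0 were called lower. Among all 17269 genes tested, 0.0521% were called higher and 0.0984% lower. The log2 fold change of Prdm1 was 1.03 (standard error 0.161, 95% interval 0.66 to 1.39, edgeR adjusted p = 0.0466). This call was lost with all 9 libraries in 1 fit, where the value was again 1.03 and the edgeR adjusted p was 0.352. It was also lost without WT embryo 2 or any 1 heterozygote (log2 fold changes of 0.91 to 1.07, edgeR adjusted p of 0.123 to 0.216), and kept without WT embryo 1 (1.26, edgeR adjusted p = 0.00442) or WT embryo 3 (0.93, edgeR adjusted p = 0.00934). Mecom had a log2 fold change of 0.32 (95% interval 0.09 to 0.54, edgeR adjusted p = 0.197). Prdm1 and Mecom both had every heterozygote value above every WT value, a pattern held by 8.97% of all genes, and 0 members had every heterozygote value below every WT value, as had 8.99% of all genes.

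In null against heterozygotes, 0 of the 7 tested members passed edgeR's test, 2 had an unadjusted p under 0.05, as had 11.4% of all genes, and DESeq2 called 1, Mecom. Among all 17067 genes tested, edgeR called 0.293% higher and 0.322% lower. Mecom had a log2 fold change of 0.97 (95% interval 0.51 to 1.44, edgeR adjusted p = 0.102), and every null value lay above every heterozygote value, as in 9.06% of all genes. Its adjusted p was 5.10e-05 with DESeq2, 0.00131 with edgeR and no filter on low counts, and 0.0360 with edgeR on all 9 libraries. Prdm1 had a log2 fold change of 0.27 between the same genotypes (95% interval -0.12 to 0.67, edgeR adjusted p = 0.565). The other member with an unadjusted p under 0.05 was Prdm15, whose log2 fold change was -0.24 (95% interval -0.45 to -0.03, edgeR adjusted p = 0.376) and whose null values all lay below the heterozygote values, as in 9.09% of all genes.

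The position of the heterozygote between WT and null was tested in 1 fit of all 9 libraries. On the log2 scale the heterozygote level of Prdm1 lay 0.38 above the midpoint of WT and null (95% interval -0.01 to 0.76). That of Mecom lay off it by -0.33 (95% interval -0.69 to 0.03). Neither departure passed the test (edgeR unadjusted p = 0.0542 and 0.0679, adjusted p = 0.693 for both). In this contrast 0 of the 8 members tested were called by edgeR or DESeq2 and 0 had an unadjusted p under 0.05, as had 6.94% of all genes, while 2 of all 17797 genes (0.0112%) were called higher and 0 (0.0%) lower. A heterozygote at the plain mean of the WT and null CPM lies above this log2 midpoint whenever WT and null differ. Prdm16 itself lay 1.01 above its log2 midpoint (standard error 0.108, edgeR adjusted p = 0.0228). That call was lost with the replicate block (1.01, edgeR adjusted p = 0.0610) and in 6 of 9 fits that left out 1 embryo, those without any 1 WT embryo, heterozygote 1 or 3 or null embryo 1 (0.94 to 1.05, edgeR adjusted p of 0.0691 to 0.311).

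**Figure D3:**
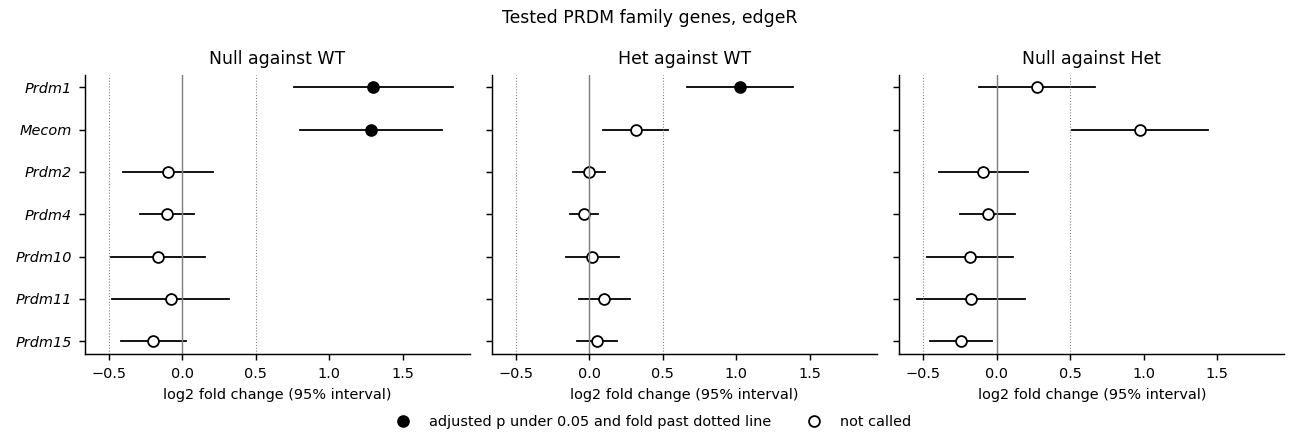
Log2 fold changes of the 7 tested members in the 3 pairwise comparisons, with 95% intervals and dotted lines at the fold threshold of 0.5. Filled points passed the test. Prdm1 is called in null and in heterozygote embryos against WT, Mecom in null embryos against WT, and the 95% intervals of Prdm2, Prdm4, Prdm10 and Prdm11 include 0 in all 3 panels.

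Per kb of exon sequence, Prdm2 and Prdm4 were the most abundant of the 9 members in WT. Prdm2, or Riz1, methylates histone H3 and is known as a tumour suppressor. It measured 185, 174 and 187 CPM in WT, 172, 187 and 186 CPM in heterozygotes and 192, 135 and 185 CPM in null embryos. Null embryo 2 lay below all other libraries and the rest overlapped. The log2 fold change in null against WT was -0.10 (95% interval -0.40 to 0.21, edgeR adjusted p = 0.815). Prdm4, which recruits the arginine methyltransferase Prmt5, measured 89.4, 93.4 and 93.8 CPM in WT, 88.1, 89.6 and 91.8 CPM in heterozygotes and 91.9, 79.2 and 87.1 CPM in null embryos. Its genotypes overlapped, and the log2 fold change in null against WT was -0.10 (95% interval -0.29 to 0.08, edgeR adjusted p = 0.663).

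Prdm10, Prdm11 and Prdm15 were expressed in all libraries. Prdm10 is a zinc finger activator of the tumour suppressor gene Flcn, and it measured 38.6, 35.8 and 32.8 CPM in WT, 37.8, 36.6 and 34.3 CPM in heterozygotes and 38.2, 28.9 and 28.7 CPM in null embryos. Null embryos 2 and 3 lay below all other libraries, null embryo 1 did not, and the log2 fold change in null against WT was -0.17 (95% interval -0.48 to 0.15, edgeR adjusted p = 0.691). Prdm11, a member that lacks the usual array of zinc fingers, measured 146, 116 and 136 CPM in WT, 150, 135 and 142 CPM in heterozygotes and 150, 93.1 and 136 CPM in null embryos. Its lowest library was null embryo 2, its genotypes overlapped, and the log2 fold change in null against WT was -0.08 (95% interval -0.48 to 0.32, edgeR adjusted p = 0.890). Prdm15 is known to sustain pluripotency of embryonic stem cells by activating Rspo1 and Spry1. It measured 44.7, 48.5 and 46.2 CPM in WT, 47.4, 46.6 and 50.5 CPM in heterozygotes and 44.4, 37.6 and 40.2 CPM in null embryos. Every null value of Prdm15 lay below every WT value, by the margin between 44.4 and 44.7 CPM at the closest pair, and the log2 fold change was -0.20 (95% interval -0.42 to 0.02, edgeR adjusted p = 0.466).

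For these 5 members the largest departure from no change that the 95% intervals allowed in null against WT was -0.48, for Prdm10 and Prdm11, which is less than the fold threshold of 0.5. Null embryo 2 was the lowest of all 9 libraries for 4 of the 5. Summed over the 5 genes its level was 373 CPM, against 468 to 503 CPM in WT, 495 to 505 CPM in heterozygotes and 517 and 477 CPM in null embryos 1 and 3. That library also had the highest summed level of 6 roof markers such as Otx2 and Oc90, 14211 CPM against 8019.9 to 11499.6 CPM in the other 8, and of 8 markers of the duct epithelium such as Epcam. The part of that difference in the low values of these members was not tested.

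Prdm6 and Prdm8 did not pass edgeR's filter in any pairwise comparison of all 6 libraries and were not tested there. Prdm6 had more than the minimum count of 10 in some libraries, but in too few, and Prdm8 had it in 0. Prdm6 is a repressor of smooth muscle differentiation genes that is expressed in vascular smooth muscle precursors. Its counts were 9, 17 and 3 in WT, 11, 3 and 5 in heterozygotes and 6, 3 and 175 in null embryos. Null embryo 3 thus had 7.33 CPM, which was 11.0-fold above the next highest library, and the other 8 libraries lay between 0.0969 and 0.667 CPM, where the floor of 3 counts is 0.0973 to 0.125 CPM. Summed over 10 markers of mural and smooth muscle cells, that library had 475 CPM and the others 249 to 353 CPM. Of its sum, 172 CPM came from Cspg4, a gene also of immature cartilage, which was at most 9.41 CPM in the other libraries. The high sum is therefore no measure of mural cells there, and the part of such cells in the Prdm6 value was not tested. Prdm8 works with the neuronal factor Bhlhe22 to repress target genes in neurons, and it had between 0 and 6 counts in each library, with totals of 5 counts in WT, 9 in heterozygotes and 10 in null embryos. A difference of Prdm8 between genotypes was not detectable at this depth.

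Per kb of exon sequence, the WT ducts held most Prdm2 (24.5 ± 0.937 CPM per kb) and then Prdm4 (18.8 ± 0.495), Prdm11 (7.80 ± 0.894), Prdm15 (4.10 ± 0.170), Prdm10 (3.86 ± 0.313), Prdm1 (1.78 ± 0.467), Mecom (1.27 ± 0.108), Prdm6 (0.106 ± 0.0817) and Prdm8 (0.0130 ± 0.0118) (SD, n = 3). Prdm15 and Prdm10 differed by less than their spread. Prdm16 had 21.7 ± 2.25 CPM per kb in WT, a level between those of Prdm2 and Prdm4. In null embryos Prdm1 reached 4.39 ± 1.07 and Mecom 3.10 ± 0.958 CPM per kb, beside 3.59 ± 0.305 for Prdm15 and 3.45 ± 0.588 for Prdm10, and these 4 levels overlapped within their SD. Prdm16 was at 2.51 ± 0.447 CPM per kb in null embryos. Between the WT and null means, Prdm16 fell by 19.2 CPM per kb and Prdm1 and Mecom together gained 4.44 CPM per kb, which was 23.2% of that difference, or 20.9% in CPM without the length correction.

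**Figure D4:**
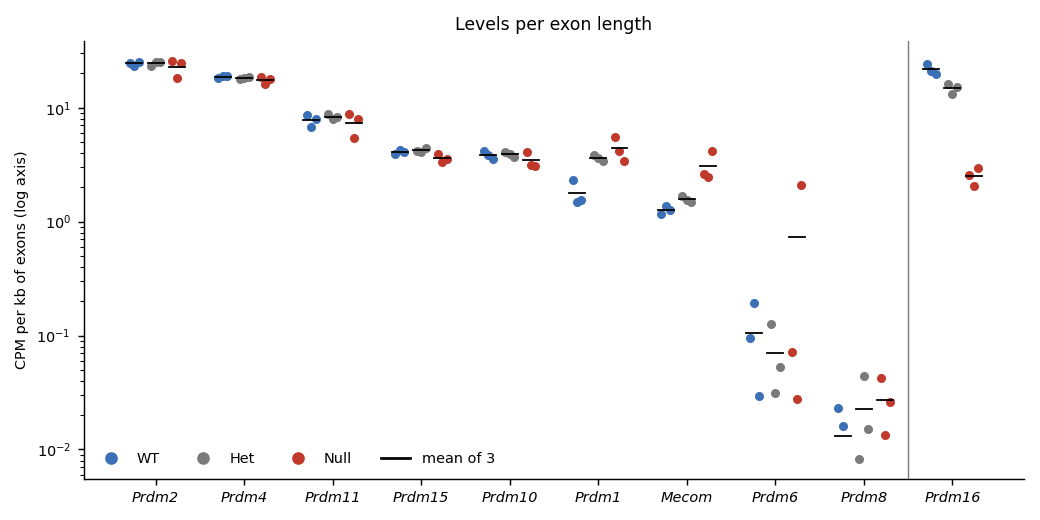
CPM per kb of exon sequence in each library on a log axis, by gene and genotype, with the mean of 3 embryos as a bar and Prdm16 to the right of the line. The 1 library in which Prdm8 had 0 counts cannot be drawn on a log axis. The WT means of the 9 members run from 24.5 for Prdm2 to 0.0130 CPM per kb for Prdm8.

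The dissected ducts expressed the markers of their epithelium in every library, with a summed level of 3137 to 3883 CPM over 8 genes, but they differed in the amount of other tissue. Markers of the periotic mesenchyme, the connective tissue around the duct, were summed over 10 genes such as Tbx18, Pou3f4 and Col3a1. That sum was 615, 1111 and 116 CPM in WT, 54.4, 104 and 74.7 CPM in heterozygotes and 65.2, 37.8 and 1506 CPM in null embryos. WT embryos 1 and 2 and null embryo 3 stood apart from the others, and every heterozygote library lay below every WT library. The 10 endothelial markers followed, with 105, 86.3 and 6.17 CPM in WT, 7.28 to 10.6 CPM in heterozygotes and 10.9, 7.40 and 64.2 CPM in null embryos, and Cdh5 was at 0 in WT embryo 3 and heterozygote 2. In null against WT, edgeR and DESeq2 called 0 of these mesenchyme and endothelial markers and 0 had an unadjusted p under 0.05 with edgeR, beside 12.2% of all genes. In heterozygotes against WT, edgeR called 0, but all 10 mesenchyme markers and all 8 endothelial markers tested had an unadjusted p under 0.05, beside 13.1% of all genes, and DESeq2 called 6 and 2 of them lower. The 10 markers of macrophages and blood summed to 34.0 to 104 CPM in WT, 13.7 to 22.3 CPM in heterozygotes and 24.8 to 46.9 CPM in null embryos. In heterozygotes against WT, edgeR called 0 of the 7 it tested, 6 had an unadjusted p under 0.05, and DESeq2 called 7 of the 10 lower. The part of these cells in the Prdm1 value of heterozygotes was not tested. Of 10 neuronal markers DESeq2 called Nefl and Syt1 lower in this comparison and edgeR called 0 of the 8 tested, with 3 unadjusted p under 0.05. Of 10 mural and smooth muscle markers, edgeR called 0 in null against WT, 4 had an unadjusted p under 0.05, and DESeq2 called Acta2 lower. In heterozygotes against WT, edgeR and DESeq2 called 0 of these 10, and 3 had an unadjusted edgeR p under 0.05.

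Epithelial regions of the duct differed as well. All 5 markers of Kölliker's organ were called lower in null against WT. Their summed level was 3082 to 3848 CPM in WT, 2938 to 3646 CPM in heterozygotes and 1584 to 1867 CPM in null embryos. The list was chosen with earlier results of these data known, and the study already reports its genes as lower in null ducts. Tectb, which the study lists for this region and reports as higher in null ducts, was not among them. The shared direction was therefore partly fixed by the choice of genes. Of 8 prosensory markers edgeR called 1 higher in null against WT, Prox1, and 5 had an unadjusted p under 0.05. Their sum was 957 to 1077 CPM in WT, 1117 to 1189 CPM in heterozygotes and 1028 to 1364 CPM in null embryos. Of 6 hair cell markers edgeR called 1 higher in null against WT, Myo7a (log2 fold change 1.08, edgeR adjusted p = 0.0257), and 2 had an unadjusted p under 0.05. The hair cell markers summed to 129 to 169.8 CPM in WT, 113 to 139 CPM in heterozygotes and 140.4 to 213 CPM in null embryos. The 6 roof markers summed to 8019.9 to 9405 CPM in WT, 9618 to 10159 CPM in heterozygotes and 10827 to 14211 CPM in null embryos. Of these roof markers edgeR called 0 in null against WT, although 5 had an unadjusted p under 0.05, and DESeq2 called 1 higher, Oc90. In heterozygotes against WT, every heterozygote sum lay above every WT sum for the roof, prosensory and duct epithelium markers and for 6 markers of Schwann cells and glia (1480 to 1579 CPM in WT, 1627 to 1701 CPM in heterozygotes and 1413 to 1612 CPM in null embryos), as did Prdm1. edgeR and DESeq2 called 0 markers of these 4 lists in that comparison, with an unadjusted edgeR p under 0.05 for 4 roof, 2 prosensory, 2 duct epithelium and 2 glial markers, and DESeq2 called Efhd1 of Kölliker's organ lower. In null against heterozygotes, edgeR and DESeq2 called 4 of the 5 markers of Kölliker's organ lower, Tecta, Efhd1, Clic6 and Snap91. edgeR called 1 other marker there, Pvalb of the hair cell list (4.22, edgeR adjusted p = 0.0203), at 0.0361 to 0.329 CPM in heterozygotes and 2.68 to 4.99 CPM in null embryos. DESeq2 called Pvalb, Myo7a, Prox1, the endothelial marker Flt1, the glial marker Fabp7 and the blood marker Hba-a1 higher. Of 4 outer sulcus markers edgeR and DESeq2 called 0 in each pairwise comparison, with 1 unadjusted edgeR p under 0.05 in each. Such a p was held by 12.2% of all genes in null against WT, 13.1% in heterozygotes against WT and 11.4% in null against heterozygotes. The part of these regions and cells in the Prdm1 and Mecom values was not tested. In RNA from whole ducts, fewer cells of a type and less RNA per cell cannot be told apart.

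Without the 3 libraries that stood apart, WT was left with embryo 3 alone beside 3 heterozygotes and 2 null embryos. The spread in that fit came from the heterozygote and null libraries, and the lone WT library was assumed to vary like them, so the WT level had no replicate check. Prdm1 and Mecom passed the test in null against WT there. In that fit of 6 libraries the log2 fold change was 1.66 for Prdm1 (edgeR adjusted p = 0.00426) and 1.02 for Mecom (edgeR adjusted p = 0.0203). Null embryos 1 and 2 and WT embryo 3 had mesenchyme sums of 37.8 to 116 CPM, and their Mecom levels were 32.8, 30.5 and 15.7 CPM. With the mean log2 level of the mesenchyme markers as a covariate over all 9 libraries, the values were 1.19 for Prdm1 (edgeR adjusted p = 0.0104) and 1.43 for Mecom (edgeR adjusted p = 2.42e-04). In heterozygotes against WT, Prdm1 was not called in either fit, with log2 fold changes of 1.23 (edgeR adjusted p = 0.0790) without the 3 libraries, against the lone WT library, and 0.87 (edgeR adjusted p = 0.899) with the covariate. Mecom in null against heterozygotes was called in both, with 0.70 (edgeR adjusted p = 0.0221) and 0.84 (edgeR adjusted p = 0.00904). Both fits were chosen after the libraries had been seen to differ in these markers.

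**Figure D5:**
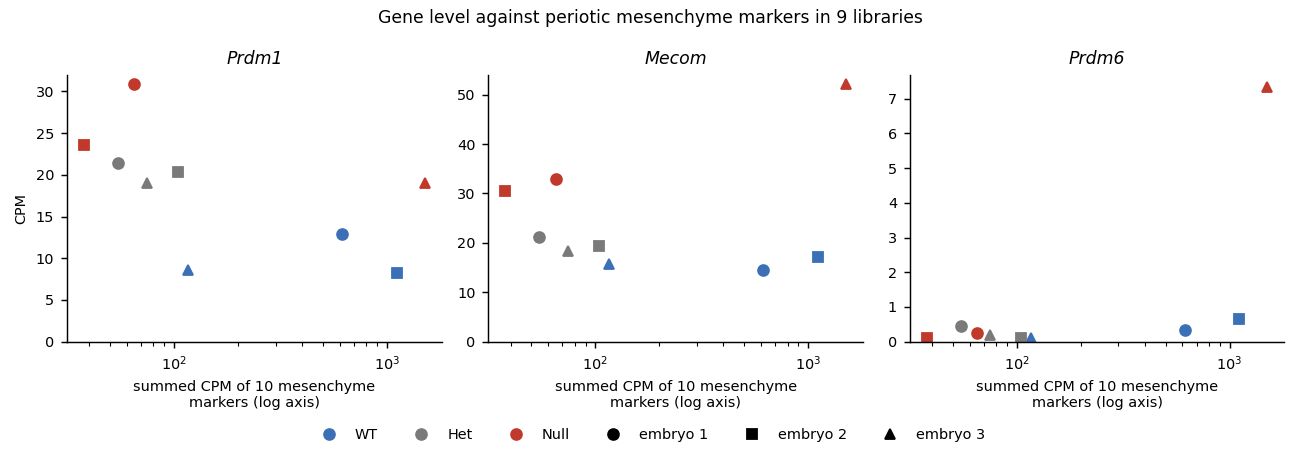
CPM of Prdm1, Mecom and Prdm6 in each library against the summed CPM of 10 periotic mesenchyme markers on a log axis, by genotype and embryo number. Null embryos 1 and 2 carry 30.5 to 32.8 CPM of Mecom at mesenchyme sums of 37.8 to 65.2 CPM, and Prdm6 is above 1 CPM only in the library with the highest sum, 1506 CPM.

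Genes that flank Prdm1 and Mecom on their chromosomes did not pass the test. The nearest tested genes to Prdm1 were Atg5, a gene of autophagy 72885 bases away, with a log2 fold change in null against WT of -0.01 (95% interval -0.25 to 0.23, edgeR adjusted p = 0.981), and Gm4795, 477608 bases away, with 0.20 (95% interval -0.34 to 0.74, edgeR adjusted p = 0.788). Those nearest to Mecom were the zinc finger gene Mynn, 54056 bases away, with -0.05 (95% interval -0.29 to 0.20, edgeR adjusted p = 0.896), and Egfem1, 260086 bases away, with 2.21 (95% interval -0.30 to 4.72, edgeR adjusted p = 0.472). Egfem1 was low, at 0.350 ± 0.343 CPM in WT and 1.69 ± 2.21 CPM in null embryos (SD, n = 3 each). The antisense gene Mecomos shares 81 exon bases with Mecom and had 0 to 4 counts per library, 4930517E14Rik shares 129 exon bases with Prdm10 and had 6 to 19, and A730035I17Rik shares 1411 exon bases with Prdm8 and had 0. The strand setting of the counting is not given in the sources used here, and without it reads on shared bases cannot be assigned to either gene.

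The genes with profiles most like that of Mecom over the 9 libraries were Myo7a, an unconventional myosin of hair cells, Lhfp, Ank1, which encodes an ankyrin, Postn, which encodes the matrix protein periostin, and Cthrc1. Likeness was measured as the root mean square difference of log2 CPM profiles after centring, among 17796 other genes, and is a description. It was 0.133 for Myo7a, 0.155 for Lhfp, 0.182 for Ank1, 0.187 for Postn and 0.189 for Cthrc1. Myo7a averaged 17.0 CPM in WT, 19.4 CPM in heterozygotes and 35.9 CPM in null embryos. The genes most like Prdm1 were Sgk1, a serum- and glucocorticoid-regulated kinase, at 0.200, Gm26347 at 0.219, the prosensory growth factor Fgf20 at 0.233, Gm16046 at 0.239 and Gm45597 at 0.245. Fgf20 averaged 14.4 CPM in WT, 26.9 CPM in heterozygotes and 36.8 CPM in null embryos. Prdm1 and Mecom were not close to each other by this measure, at 0.525, where Prdm1 ranked 2877 among the genes nearest to Mecom and Mecom ranked 1390 among those nearest to Prdm1.

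Of 7 other genes with a PR domain or its vestige, edgeR and DESeq2 called 0 in the pairwise comparisons. The filter left 4 of them for edgeR, where 0 of them had an unadjusted p under 0.05 in null or heterozygote embryos against WT and 1 in null against heterozygotes, beside 12.2%, 13.1% and 11.4% of all genes. Zfpm1, a GATA cofactor, was the highest with 235 ± 16.3 CPM in WT and 241 ± 22.5 CPM in null embryos (SD, n = 3 each), a log2 fold change of 0.03 (95% interval -0.19 to 0.25, edgeR adjusted p = 0.922). Zfp408 had -0.07 (95% interval -0.26 to 0.12, edgeR adjusted p = 0.786) and Prdm9, which sets the sites of meiotic recombination, -0.05 (95% interval -0.44 to 0.35, edgeR adjusted p = 0.938). The largest of the 4 was that of Zfpm2, with 8.16 ± 1.22 CPM in WT, 11.6 ± 3.56 CPM in null embryos and a log2 fold change of 0.51 (95% interval -0.04 to 1.05, edgeR adjusted p = 0.443). Prdm12, Prdm13 and Prdm14 stayed under 1 CPM in every library.

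Genes that work with PRDM proteins were followed as well. The 19 partner genes, among them CtBP and Groucho corepressors, histone deacetylases, histone methyltransferases and SMAD proteins, were all tested, and edgeR and DESeq2 called 0 of them in each pairwise comparison. Their summed level was 3482 to 3551 CPM in WT, 3462 to 3563 CPM in heterozygotes and 3484 to 3599 CPM in null embryos, and their median log2 fold change in null against WT was -0.01. With edgeR 1 of them had an unadjusted p under 0.05 in null against WT, 2 in heterozygotes against WT and 1 in null against heterozygotes, where the shares of all genes were 12.2%, 13.1% and 11.4%. Of 17 genes known in other tissues as targets of the members, such as Myc and Bcl6 for Prdm1, 13 were tested and 3 stayed under 1 CPM in every library. edgeR called 0 of them in each pairwise comparison, with 2 unadjusted p under 0.05 in null against WT, 3 in heterozygotes against WT and 2 in null against heterozygotes. DESeq2 called Gata2 higher and Cdh11 lower in null against WT. These genes are named after their values were seen, and their edgeR log2 fold changes were 0.54 (adjusted p = 0.121) for Gata2 and -0.52 (adjusted p = 0.124) for Cdh11.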

How the data were processed

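RNA of cochlear ducts at E14.5 was measured in 9 embryos. Per the labels and the study's methods, TruSeq mRNA libraries were sequenced as single reads on an Illumina HiSeq and aligned to mm10 with STAR. The submitters' processing notes also name cutadapt 1.13, HTSeq 0.6.1p1 and DESeq2. The authors deposited unnormalized counts, whole numbers of reads for each Ensembl gene. Gene names and positions came from the GENCODE annotation of mm10, which held 54165 of the 54232 genes.

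Each pair of genotypes was fitted on its 6 libraries with edgeR 4.0.16 in R 4.3.3 (TMM, filterByExpr with a minimum count of 10, quasi-likelihood test, Benjamini-Hochberg adjustment over all genes). DESeq2 1.42.0, RLE scaling, no filter, all 9 libraries in 1 fit, the replicate number as a block, leaving out each embryo and the fits on mesenchyme level were the alternatives. The test was checked on simulated counts for null against WT with 16843 genes, where 59 of 100 genes changed 2-fold and 89 of 100 changed 4-fold were recovered, with 16 false calls. Per-kb levels used merged exons. A count of 3 per library was taken as the floor, which covers counting error only. The counts of embryos of 1 genotype differed beyond sampling noise, with a chi-square per gene of 5.70 to 17.9 in WT and heterozygotes and 37.1 to 68.8 between null embryos. The study describes the WT controls of the null embryos as littermates. Which embryos shared a litter is not given in the sources used here.

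The genes named are the 9 members, Prdm16, other PR domain genes, partner or target genes called in a pairwise comparison, and, for members called in null against WT, the nearest tested gene on each side and the 5 genes of most similar profile. The members and lists were chosen with earlier results of these data known. The list of other PR domain genes is not complete, and 1 gene is not reported here.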

Additional observations from a re-analysis of the deposited data

How the results depend on the processing

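Prdm1 and Mecom kept their direction in null against WT under every alternative run. Of 447 values of single genes under an alternative, 391 kept direction and call. In null against WT, where 158 genes were called higher and 135 lower, these counts were 333 and 285 with DESeq2, 267 and 209 with no filter, 260 and 208 with all 9 libraries in 1 fit and 379 and 230 with the mesenchyme covariate, and 85 were higher without the mesenchyme-rich libraries. In heterozygotes against WT, 9 and 17 became 48 and 271 with DESeq2, 109 and 575 with no filter, 0 and 0 with all 9 libraries, 3 and 11 without the mesenchyme-rich libraries and 0 and 0 with the covariate, and the last 3 fits called 0 members in place of 1. In null against heterozygotes, 50 and 55 became 194 and 160 with DESeq2, 227 and 139 with no filter, 79 and 85 with all 9 libraries, 86 and 115 without the mesenchyme-rich libraries and 131 and 193 with the covariate, and these 5 fits called 1 member, Mecom, in place of 0. For the heterozygote midpoint, 2 and 0 became 15 and 13 with DESeq2 and 13 and 22 with no filter, and 4 were higher without the mesenchyme-rich libraries. Leaving out 1 embryo gave 0 to 2 members and 31 to 214 genes higher and 37 to 232 lower in null against WT, 0 to 1 members and 0 to 47 genes higher and 0 to 458 lower in heterozygotes against WT, 0 to 1 members and 5 to 81 genes higher and 6 to 101 lower in null against heterozygotes, and 0 to 3 higher and 0 to 1 lower for the midpoint. The cause of these shifts was not tested.

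Same-numbered libraries deviated from their group means together with correlations of -0.28 to 0.20. Which embryos shared a litter is not given, so whether the replicate numbers pair the embryos cannot be told from these values. With the replicate block, 1 member was called higher in null against WT in place of 2, Prdm1 (log2 fold change 1.30, edgeR adjusted p = 0.0301), and Mecom was not (1.25, edgeR adjusted p = 0.0695). The block gave 65 genes higher and 68 lower in null against WT, 32 and 165 in heterozygotes against WT, 22 and 30 in null against heterozygotes, and 0 higher for the midpoint.

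Values that turned direction were uncalled before and after. When 1 embryo was left out, Prdm2 ranged from -0.19 to 0.054 in null against WT, from -0.033 to 0.038 in heterozygotes against WT and from -0.18 to 0.056 in null against heterozygotes, and Prdm11 from -0.22 to 0.11 in the first and from -0.32 to 0.0060 in the last, with the positive null values obtained without null embryo 2. Prdm10 ranged from -0.038 to 0.079 in heterozygotes against WT. Off the midpoint, Prdm2 ranged from -0.028 to 0.092 and Prdm4 from -0.018 to 0.036. Prdm10 was 0.038 in null against WT without the mesenchyme-rich libraries. With the covariate, Prdm2 was 0.073 and Prdm10 -0.0095 in heterozygotes against WT. Prdm6, off the midpoint by -1.98 as reported, was at 0.86 without the mesenchyme-rich libraries and at 1.15 with the covariate. The fits on mesenchyme level were chosen after the data were seen, and the one without the mesenchyme-rich libraries rests on 1 WT library. With 3 embryos per genotype and 0 to 17 counts of Prdm6 in 8 libraries and of Prdm8 in all 9, depth limited what could be tested in these genes, and Prdm6 was called only in null against WT with the covariate.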

Other observations

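The library of null embryo 3, in which Prdm6 was 11.0-fold above the next highest library, also differed from the other 8 in genes of the cartilage matrix, which were picked after their values were seen. Acan, which encodes the proteoglycan aggrecan, was at 502 CPM there and at most 7.03 CPM elsewhere. Hapln1, which encodes a link protein of aggrecan, was at 516 CPM against at most 7.75 CPM, and the matrilin genes Matn1 and Matn3 were at 391 and 40.2 CPM against at most 13.6 and 0.973 CPM. Cspg4, a proteoglycan gene of pericytes and of immature cartilage, was at 172 CPM against at most 9.41 CPM. In all, 33 genes exceeded 3 CPM and were more than 10-fold above every other library there, and 0 genes did so in any of the other 8 libraries. The genes on either side of Prdm6 were less unusual in that library, with Ppic at 115 CPM against 51.5 to 72.7 CPM elsewhere and Cep120 at 62.9 CPM against 51.3 to 74.4 CPM. With the mesenchyme level as a covariate, Prdm6 was called higher in null against WT (log2 fold change 3.15, edgeR adjusted p = 0.0179), where null embryo 3 held most of its counts. Without the 3 mesenchyme-rich libraries, null embryo 3 among them, 2 null embryos were set against 1 WT library with no replicate of its own, and the value was 0.70 (95% interval -2.25 to 3.64, edgeR adjusted p = 0.880).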
